A study of Arabidopsis thaliana with 4 samples.

Results

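Transcript levels of 30 small secreted peptide and cysteine-rich genes were read on Affymetrix arrays in *Arabidopsis thaliana* seedlings with induced RKD4 and in control seedlings. The genes were chosen by name alone: every gene with a probe set of its own in the platform annotation whose symbol is RALFL, LCR, CLE or SCRL with a number, or PDF with a number and a dot. They are 30 of 13355 genes with such a probe set, and comprise 11 RALFL, 6 CLE, 8 LCR and 5 PDF genes. No SCRL gene had one. The current gene table lists 32 RALFL, 30 CLE, 81 LCR, 8 PDF and 28 SCRL genes, so most of each large family was not analysed here. PDF1A and PDF1B, whose names carry no dot, are peptide deformylase genes and not members.

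The RKD4-induced seedlings carried the transgenes UAS-RKD4 and 35S-GVG, and the control seedlings carried 35S-GVG alone, both in the Col-0 ecotype. GVG is a chimeric transcription factor that dexamethasone activates, here made from the broadly active 35S promoter, and RKD4 is an RWP-RK transcription factor of the early embryo. Both groups were moved to 1 µM dexamethasone 2 days after germination and sampled 24 h later, on day 3. Each group had 2 arrays, labelled as biological replicates, each from a pool of 60 seedlings. The labels do not say how many transgenic lines the pools came from or whether the pools were grown apart. No seedlings without dexamethasone were among the samples, so an effect of RKD4 and another difference between the lines cannot be told apart. The signal is a linear intensity with a median between 175 and 185 per array, and with so few arrays the errors below are themselves imprecise. The induction of RKD4 itself was not checked, because no probe set here is assigned to it. As a check of the tissue, the photosynthesis gene RCA, 1 of 5 measured green tissue markers, lay between 31622 and 41794 on every array. Its groups overlapped, and the other markers are given below.

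These families encode short proteins that enter the secretory pathway. RALF peptides are cysteine-containing signals that raise the pH outside the cell and act through receptor kinases of the FERONIA family, with effects on cell expansion and immunity. CLE peptides are cut from longer precursors and act through leucine-rich repeat receptor kinases that control stem cells in shoot, root and vascular tissue. Plant defensins (PDF) and the low-molecular-weight cysteine-rich (LCR) proteins are small folded proteins held by disulphide bridges, known from defence and, for some, from reproductive tissue.

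Of the 30 genes 6 fell and 1 rose at an adjusted p under 0.05 (limma, Benjamini-Hochberg over 22746 probe sets). All 6 that fell belong to the RALFL and CLE families, and the gene that rose is the defensin PDF1.4. By family, 4 of 11 RALFL, 2 of 6 CLE, 0 of 8 LCR and 1 of 5 PDF genes passed, and the shares of families were not compared by a test. Over all probe sets 21.8% passed, 10% higher and 11.8% lower. The count of 7 of 30 lies close to that background. Changes are log2 values of RKD4-induced over control ± the moderated SE of the limma fit (n = 2 arrays each), on the log2(signal + 32.4) scale. The moderated SE draws each gene's variance toward that of probe sets of similar signal. It is therefore not the spread of that gene's arrays alone. The constant 32.4 is the lower quartile of the signals, and this scale understates the change of weak genes. The median log2 change was -0.19 for the 30 genes and -0.08 for all probe sets.

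**Figure D1:**
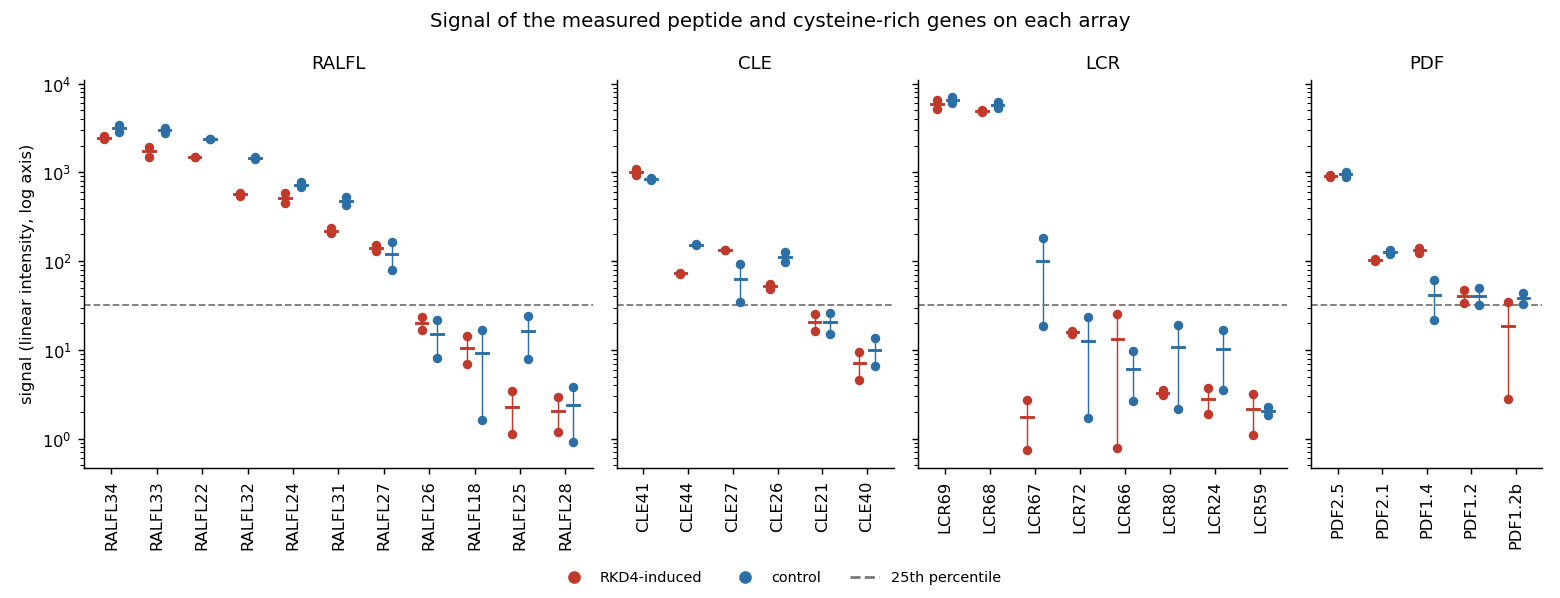
Signal (linear intensity, log axis) of each gene on the 2 RKD4-induced arrays (red) and the 2 control arrays (blue), with short bars for group means and a dashed line at the lower quartile of the signals of all probe sets (32.4). Of the 30 genes 11 lie under the line on every array, and the induced points of RALFL32, RALFL31, RALFL33 and RALFL22 lie below their control points.

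Many of these genes read near the floor. No detection calls were used, so a gene was counted as near the floor when its signal was under 32.4 on every array. This held for 11 of 30 genes (36.7%), against 23.5% of the 13355 genes with a probe set of their own and 19.1% of all probe sets. The count rests on where the floor is set: under the 10th percentile of the signals (5.48) on every array it was 2 of 30 genes, and under the 40th (101.7) it was 13. Shares of all genes under these other floors were not computed. The 11 genes under 32.4 were 4 RALFL genes (RALFL18, RALFL25, RALFL26 and RALFL28), 2 CLE genes (CLE21 and CLE40), 5 LCR genes (LCR24, LCR59, LCR66, LCR72 and LCR80) and no PDF gene. Their signals ran from 0.788 to 26.4, their log2 changes from -0.46 to 0.19, and none passed, with adjusted p of at least 0.157 (limma). CLE40, a signal of the root tip, read 9.51 and 4.61 on the RKD4-induced arrays and 13.5 and 6.57 on the control arrays, so its arrays overlap at a level where no change can be read.

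Of the 19 genes above that floor on at least 1 array, 6 fell, 1 rose and 12 did not pass. Among probe sets of this kind 26.6% passed, 12.3% higher and 14.3% lower. The median log2 change of the 19 genes was -0.35, against -0.11 for the 18399 probe sets of this kind. The arrays of both groups did not overlap in 15 of all 30 genes, with RKD4-induced seedlings below in 12 and above in 3. For all probe sets 61.4% did not overlap, 37.0% with RKD4-induced below and 24.4% above.

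The RALFL family held the 2 largest falls that passed the test, those of RALFL32 and RALFL31. Of its 7 genes above the floor 4 fell, where 14.3% of all probe sets above the floor did. With all probe sets in 10 equal bins of mean signal, those 4 genes lay in bins 7, 9 and 10. In these bins 19.0%, 20.0% and 16.2% of probe sets fell. In 6 of the 7 both RKD4-induced arrays lay below both control arrays, as they did in 40.9% of all probe sets above the floor. RALFL32 (AT4G14010) read 547 and 584 in RKD4-induced seedlings, against 1428 and 1500 in control seedlings. Replicate arrays lay within 1.07-fold of each other and the groups were far apart. RALFL32 fell by 1.32 ± 0.10 to 38.6% of the control mean (adjusted p 0.000779), and it kept its call with each array left out in turn.

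RALFL31 (AT4G13950) read 236 and 206 in RKD4-induced seedlings, against 428 and 529 in control seedlings. Each induced array was below each control array, and RALFL31 fell by 1.01 ± 0.15 (adjusted p 0.00738). Its call was lost without RKD4-induced replicate 2 (-0.92, adjusted p 0.0617) or control replicate 2 (-0.86, 0.0551).

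RALFL33 (AT4G15800), whose peptide acts through FERONIA in immunity, read 1945 and 1506 in RKD4-induced seedlings, against 3176 and 2806 in control seedlings. It fell by 0.79 ± 0.15 (adjusted p 0.0140). The groups did not overlap, but the induced arrays differed 1.29-fold, and the call held in 1 of 4 fits with an array left out (log2 changes -0.97 to -0.61, adjusted p 0.0301 to 0.0914). It was lost without RKD4-induced replicate 2 (-0.61), control replicate 1 (-0.70) or control replicate 2 (-0.88).

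RALFL22 (AT3G05490), also a ligand of FERONIA, read 1477 and 1511 in RKD4-induced seedlings, against 2370 and 2384 in control seedlings. Replicates were nearly equal in both groups. It fell by 0.66 ± 0.09 to 62.8% of the control mean (adjusted p 0.00523), and it kept its call with each array left out.

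RALFL34 and RALFL24 had lower means in RKD4-induced seedlings and did not pass. RALFL34 (AT5G67070), the ligand of the receptor kinase THESEUS1 in lateral root formation, read 2349 and 2568 in RKD4-induced seedlings, against 2851 and 3437 in control seedlings (-0.35 ± 0.12, adjusted p 0.1004). RALFL24 (AT3G23805) read 455 and 579 in RKD4-induced seedlings, against 677 and 773 in control seedlings (-0.47 ± 0.15, adjusted p 0.0717). In both genes each induced array lay below each control array. RALFL24 passed when only probe sets above the 30th percentile of mean signal were tested (adjusted p 0.0307) and with the replicate number as a block in the fit (0.0152), and RALFL34 with the block alone (0.0329). With an array left out, RALFL34 ran from -0.48 to -0.21, smallest in size without control replicate 2, and RALFL24 lay at -0.31 without RKD4-induced replicate 1. RALFL27 read 129 and 150 in RKD4-induced seedlings, within the control readings of 164 and 80.0, which were 2.05-fold apart.

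RALFL25 and RALFL26 are adjacent protein-coding genes on chromosome 3 in the TAIR10.1 gene table and both read near the floor. RALFL25 read 1.13 and 3.42 in RKD4-induced seedlings, against 24.3 and 7.99 in control seedlings (-0.46 ± 0.20, adjusted p 0.157). With a pseudocount of 1 its log2 change lay at -2.30 (adjusted p 0.110), so its size rests on values under the floor. With an array left out it ran from -0.71 to -0.22. RALFL26 overlapped between groups, with 16.7 and 23.4 in RKD4-induced seedlings and 21.9 and 8.10 in control seedlings.

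**Figure D2:**
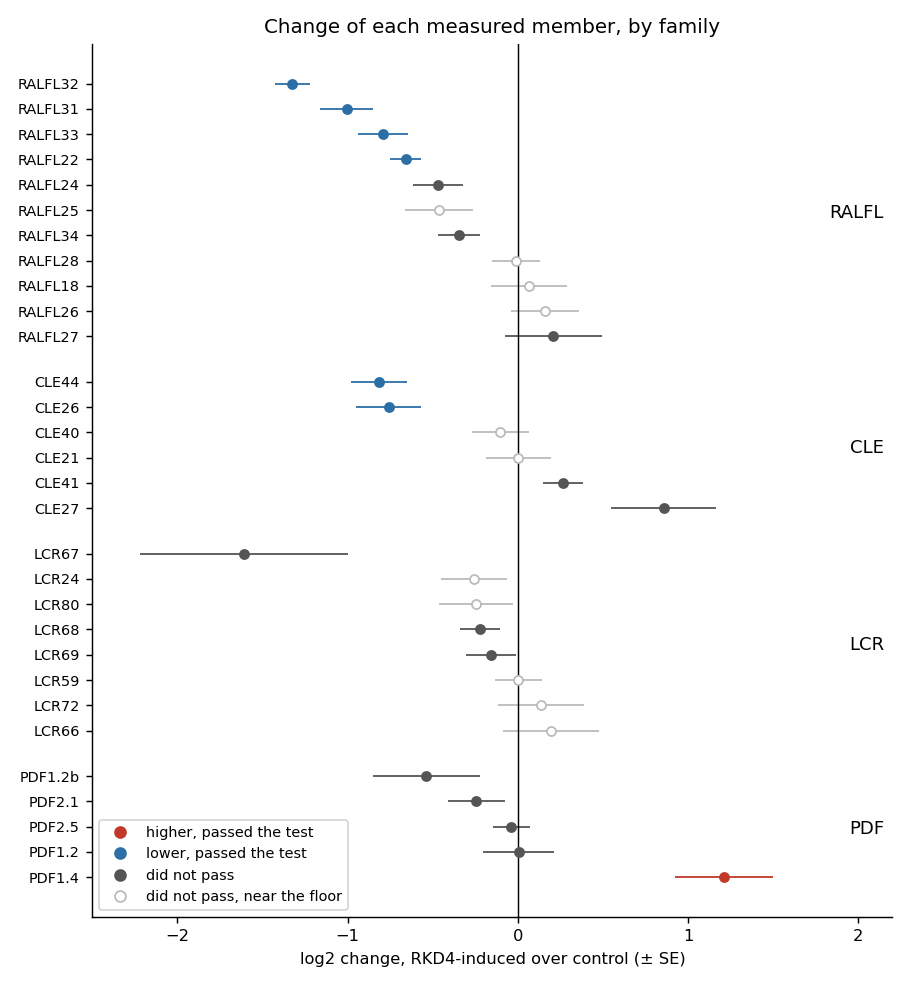
Log2 change of RKD4-induced over control ± moderated SE for each of the 30 genes, grouped by family and ordered by change. Blue points fell and red points rose at an adjusted p under 0.05, dark grey points did not pass, and open points read under 32.4 on every array. The 4 blue RALFL points run from -1.32 to -0.66, and PDF1.4 at 1.21 is the single red point.

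Among CLE genes, CLE44 and CLE26 fell, while CLE41 and CLE27 had higher means in RKD4-induced seedlings and did not pass. CLE44 (AT4G13195), a precursor of the vascular stem cell signal TDIF, read 74.0 and 71.5 in RKD4-induced seedlings, against 156 and 150 in control seedlings. Replicates were within 1.04-fold and the groups were apart. CLE44 fell by 0.82 ± 0.17 (adjusted p 0.0189), but its call was lost in each of the 4 fits with an array left out (log2 changes -0.84 to -0.80, adjusted p 0.0810 to 0.1001).

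CLE41 (AT3G24770) encodes the same mature TDIF peptide as CLE44. It read 1101 and 933 in RKD4-induced seedlings, against 814 and 862 in control seedlings (0.27 ± 0.12, adjusted p 0.168). Both induced readings were above both control readings, but the difference did not pass and lay at 0.15 without RKD4-induced replicate 1. The change of CLE41 and that of CLE44 have opposite signs, and the difference between them was not tested.

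CLE26 (AT1G69970), whose peptide alters vascular development in the root when supplied, read 56.0 and 49.1 in RKD4-induced seedlings, against 125 and 98.5 in control seedlings. It fell by 0.76 ± 0.19 (adjusted p 0.0367), and its call too was lost in each of the 4 fits with an array left out (-0.89 to -0.63, adjusted p 0.0767 to 0.163). CLE27 (AT3G25905) read 134 and 132 in RKD4-induced seedlings, against 34.2 and 92.9 in control seedlings. Its induced arrays agreed closely while the control arrays lay 2.71-fold apart, and its log2 change of 0.86 ± 0.31 did not pass (adjusted p 0.103). Without control replicate 2 it lay at 1.31 (adjusted p 0.0342), and without control replicate 1 at 0.40 (0.266). With all arrays it passed with the filter on mean signal (0.0291) and with the replicate block (0.0396).

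The LCR and PDF names overlap in the plant defensins. Of the 8 LCR genes 5 carry a PDF name as a synonym, and 4 of the 5 PDF genes carry an LCR name, so 10 of the 30 genes are named as defensins. Of these 10 genes, PDF1.4 rose and 9 did not pass, with LCR66 and LCR72 near the floor. The other 3 LCR genes (LCR24, LCR59 and LCR80) all read near the floor.

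PDF1.4 (AT1G19610, also LCR78) read 142 and 124 in RKD4-induced seedlings, against 61.2 and 21.9 in control seedlings. Both induced arrays were above both control arrays, of which replicate 2 was under the floor. PDF1.4 rose by 1.21 ± 0.29, and its means differed 3.20-fold (adjusted p 0.0307). Its size depended on the pseudocount, with 1.82 at a pseudocount of 1. The call was lost without RKD4-induced replicate 1 (1.13, adjusted p 0.162), RKD4-induced replicate 2 (1.29, 0.126) or control replicate 2 (0.82, 0.0900).

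PDF1.2 (AT5G44420), the defensin most used as a marker of jasmonate and ethylene defence signalling, read 47.7 and 33.6 in RKD4-induced seedlings, against 31.9 and 49.4 in control seedlings. All 4 readings lay close to the floor and the groups overlapped. PDF1.2b, its close homologue, read 34.3 and 2.82 in RKD4-induced seedlings, against 43.8 and 32.6 in control seedlings (-0.54 ± 0.31, adjusted p 0.281). Its induced arrays were 12.2-fold apart, and its log2 change lay at -0.998 without RKD4-induced replicate 1, at -0.08 without RKD4-induced replicate 2 and at -1.74 with a pseudocount of 1. The PDF1.2 genes are near-identical, and the probe set of PDF1.2b carries the suffix that Affymetrix gives to probes shared with other sequences, so the values of these 2 genes cannot be assigned to 1 gene with certainty.

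LCR69, PDF2.1, LCR68 and LCR72 form a row on chromosome 2 in the TAIR10.1 gene table, in which 1 other protein-coding gene stands between LCR69 and PDF2.1. LCR69 (AT2G02100, also PDF2.2) read 5197 and 6485 in RKD4-induced seedlings, against 5987 and 7006 in control seedlings (-0.16 ± 0.15). LCR68 (AT2G02130, also PDF2.3) read 4843 and 5061 in RKD4-induced seedlings, against 5338 and 6267 in control seedlings (-0.22 ± 0.12). Both probe sets were among the brightest 3% of all, at percentiles 98.0 and 97.6 of mean signal, and neither passed, with adjusted p of 0.509 and 0.234. With an array left out LCR68 ran from -0.34 to -0.11, and LCR69 from -0.32 to 0.00189.

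In the same row, PDF2.1 (AT2G02120) read 106 and 99.4 in RKD4-induced seedlings, against 135 and 121 in control seedlings (-0.24 ± 0.17, adjusted p 0.361). LCR72 (AT2G02140, also PDF2.6) read 16.2 and 15.3 in RKD4-induced seedlings, against 23.7 and 1.70 in control seedlings. None of the 4 neighbours passed. Signals of different probe sets do not measure relative transcript amounts, so their levels are not compared with each other. PDF2.5 (AT5G63660), from another place in the genome, read 945 and 899 in RKD4-induced seedlings, against 999 and 898 in control seedlings (-0.04 ± 0.11).

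LCR67 (AT1G75830, also PDF1.1) had the lowest fitted log2 change of the 30 genes and did not pass. It read 2.72 and 0.740 in RKD4-induced seedlings, against 181 and 18.7 in control seedlings. Of its 4 readings only that of control replicate 1 was above the floor, and the control arrays lay 9.69-fold apart. Its log2 change of -1.61 ± 0.61 did not pass (adjusted p 0.116), and its size is not a measured one because both induced arrays were under the floor. It lay at -0.58 without control replicate 1 (adjusted p 0.0951) and at -2.64 without control replicate 2 (0.00799), and it passed with pseudocounts at the 10th percentile (-3.23, 0.0444) and of 1 (-4.55, 0.0225), and with the replicate number as a block (0.0159).

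**Figure D3:**
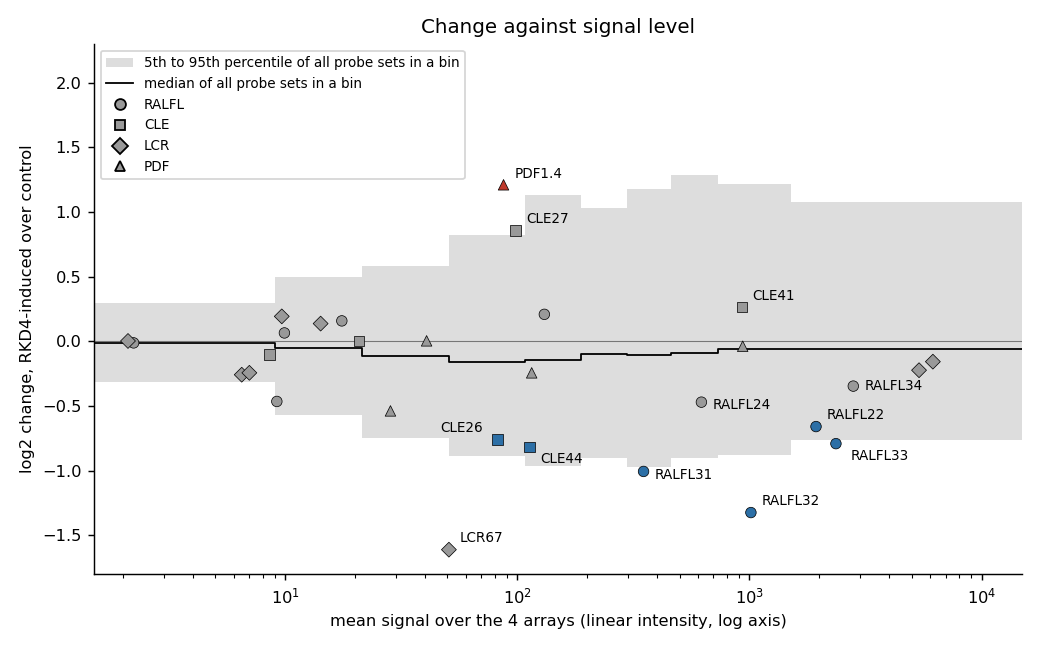
Log2 change of RKD4-induced over control against mean signal over the 4 arrays (linear intensity, log axis) for the 30 genes, with symbols by family, blue for genes that fell and red for the gene that rose. The grey steps hold the 5th to 95th percentile of all probe sets in 10 equal bins of mean signal, and RALFL32, RALFL31, RALFL33, LCR67, PDF1.4 and CLE27 lie outside the steps of their bins.

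The share of probe sets that passed differed by signal level. In 10 bins of equal size by mean signal, 0.220% of probe sets passed in the dimmest bin, 4.62% in the next and 39.6% in bin 9. The 11 genes in the 2 dimmest bins included none that passed. RALFL32 lay in bin 9, where the 5th percentile of all log2 changes was -0.88, and RALFL31 in bin 7, where it was -0.97. RALFL33 and RALFL22 lay in bin 10, where it was -0.77, so RALFL33 was just below that percentile and RALFL22 above it. PDF1.4 lay in bin 4, where the 95th percentile was 0.82.

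Of 28 listed receptors and partners of RALF peptides 4 were measured. For this and the following lists, measured means that the platform annotation gave the gene a probe set of its own. Other listed genes may lie among the 8730 probe sets without a gene symbol or the 503 with several, and were not read. THE1 (THESEUS1) fell by 0.50 ± 0.12, with 447 and 403 in RKD4-induced seedlings, against 587 and 640 in control seedlings (adjusted p 0.0322). Its call was lost without the variance trend (0.0577) and in each of the 4 fits with an array left out (-0.57 to -0.43, adjusted p 0.0875 to 0.145). FER (FERONIA) read 1960 and 1633 in RKD4-induced seedlings, against 1887 and 1647 in control seedlings, so its groups overlapped (0.02 ± 0.13, adjusted p 0.937). ANX1 and ANX2, pollen tube receptor kinases, read near the floor on every array.

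Of 23 listed CLE receptors and targets 5 were measured, and none passed. The receptor kinase ACR4, which perceives CLE40 in the root tip, read 102 and 63.0 in RKD4-induced seedlings, against 93.6 and 145 in control seedlings (-0.40 ± 0.26, adjusted p 0.330). The groups overlapped, and with an array left out ACR4 ran from -0.65 to -0.15. PXL2 (AT4G28650), a relative of the TDIF receptor PXY, lay at -0.17 ± 0.14, and from -0.28 to -0.06 with an array left out. The phosphatase gene POL of stem cell signalling lay at 0.11 ± 0.12 and, with an array left out, from 0.04 to 0.17. CLV3, the shoot stem cell peptide, read near the floor.

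Of 18 listed peptide processing genes 4 were measured, and none passed. S1P, the protease that cleaves RALF precursors, read 158 and 152 in RKD4-induced seedlings, against 213 and 166 in control seedlings (-0.23 ± 0.17, adjusted p 0.391). With an array left out it ran from -0.39 to -0.08. As in S1P, both induced arrays lay below both control arrays in the subtilase genes SBT4.12 (-0.62 ± 0.20, adjusted p 0.0702) and SBT3.5 (-0.45 ± 0.18, 0.131). This held for 40.9% of all probe sets above the floor. SBT3.5 lay at -0.29 without RKD4-induced replicate 1. SBT4.12 passed without RKD4-induced replicate 1 (-0.93, adjusted p 0.0251). It did not pass without RKD4-induced replicate 2 (-0.32, 0.156), control replicate 1 (-0.63, 0.208) or control replicate 2 (-0.61, 0.219). With all arrays SBT4.12 passed with a pseudocount of 1 (0.0492), with the filter on mean signal (0.0179) and with the replicate block (0.0122).

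Of 71 listed genes of other small secreted peptides 3 were measured. STOMAGEN (EPFL9), a leaf mesophyll peptide that promotes stomata, fell by 1.41 ± 0.13, with 160 and 170 in RKD4-induced seedlings, against 490 and 495 in control seedlings (adjusted p 0.00132). It kept its call with each array left out (adjusted p 0.0209 to 0.0224). The egg cell peptide gene EC1.5 read 2402 and 2106 in RKD4-induced seedlings, against 1.296 and 1.622 in control seedlings. It rose (adjusted p 3.34e-05), and because both control arrays were under the floor its size has only a bound. EC1.5 was at least 69.3-fold higher in RKD4-induced seedlings, taking the geometric mean of their readings over the floor of 32.4. EC1.2 read near the floor on every array.

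Of 30 listed jasmonate, ethylene and defence genes 3 had a probe set of their own in the annotation. EIN3, a transcription factor of ethylene signalling, rose by 0.73 ± 0.10, with 1687 and 1525 in RKD4-induced seedlings, against 928 and 984 in control seedlings (adjusted p 0.00580). Without RKD4-induced replicate 1 its adjusted p was 0.0507. The thionin genes THI2.2 (-0.32 ± 0.21, adjusted p 0.337) and THI2.1 (-0.37 ± 0.19, 0.223) did not pass, and THI2.1 read near the floor. With an array left out THI2.2 ran from -0.60 to -0.03 and THI2.1 from -0.57 to -0.17, and THI2.1 lay at -1.30 with a pseudocount of 1.

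**Figure D4:**
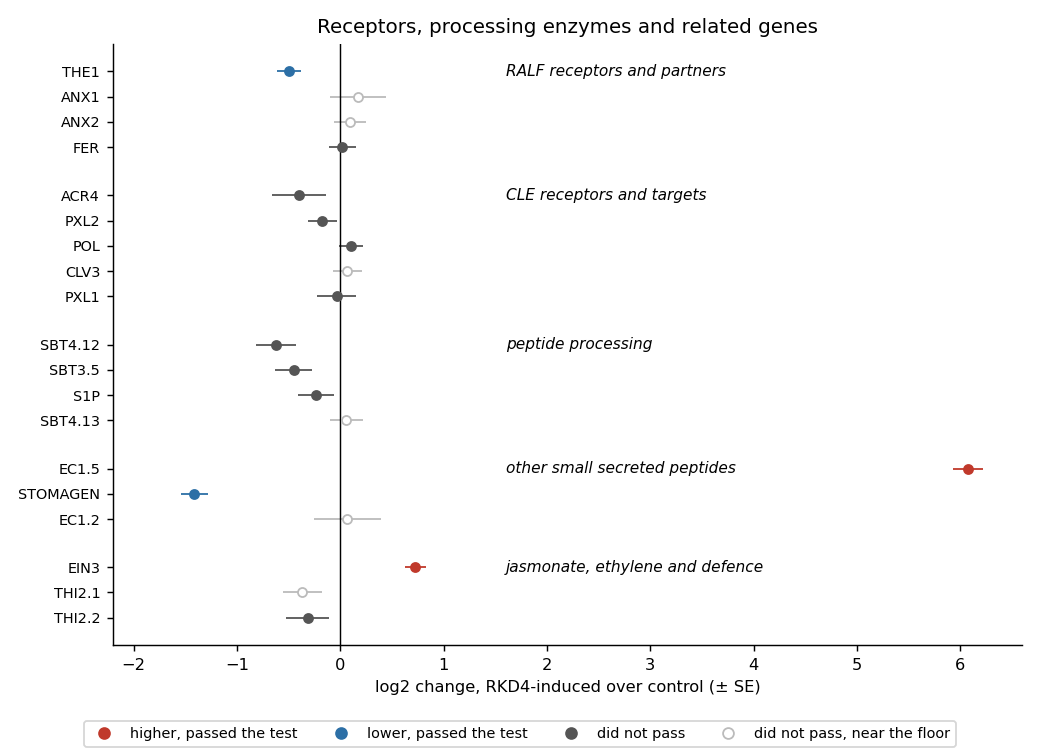
Log2 change of RKD4-induced over control ± moderated SE for the measured genes of 5 lists of receptors, processing enzymes and related genes. Blue points fell, red points rose, dark grey points did not pass and open points read under 32.4 on every array. THE1 and STOMAGEN are the blue points, and EC1.5 and EIN3 the red ones. The plotted size of EC1.5 depends on the pseudocount, since its control arrays are under 32.4.

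Some markers of tissues also differed between the groups. Over all probe sets 21.8% passed, and 26.6% of those above the floor. Of 12 listed root markers 3 were measured, and none was near the floor. The root hair expansin genes EXPA7 (-0.83, adjusted p 0.0126) and EXPA18 (-0.71, 0.0205) fell, and JKD did not pass. Their summed signal was 888 and 938 in RKD4-induced seedlings, against 1763 and 1361 in control seedlings. Of 17 listed green tissue markers 5 were measured, of which PORB fell and 4 did not pass. Their sums were 96980 and 91750 in RKD4-induced seedlings, against 100400 and 113200 in control seedlings. In all of these green markers except RCA both induced arrays lay below both control arrays. This held for 40.9% of all probe sets above the floor. Of 12 listed flower and pollen markers 4 were measured. AGL65 (2.25) and EMS1 (2.06) rose, AGL66 did not pass and MGH3 was near the floor. Their sums were 1018 and 1146 in RKD4-induced seedlings, against 266 and 197 in control seedlings. Each sum adds signals of different probe sets and so follows the brightest, such as EMS1 with 149 and 130 in control seedlings. The part of these tissues in the changes of the peptide genes was not tested, and in whole seedlings fewer cells of a type and less RNA per cell cannot be told apart.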

How the data were processed

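Each deposited value is an intensity (linear scale, 1 signal per probe set) that the authors computed. GCOS, the array maker's software, is the tool given in the submitters' processing notes, with no version or settings. The 2% trimmed mean was 500.05 on every array, so the scaling was kept. After 64 control probe sets were left out, 22746 remained.

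From these values log2(signal + 32.4) was computed and compared between groups in limma 3.58.1 (R 4.3.3) with a variance trend on mean signal (2 residual and 4.12 added degrees of freedom). Benjamini-Hochberg adjustment of two-sided p-values covered all probe sets. The fit was tested on simulated data with normal noise of its own fitted variances, which checks the code and not the calls. Permuting 2 against 2 arrays (exact, two-sided) gives at least p = 0.333 and was not used. The p-values rest on the spread between these pools and on the variances of other probe sets of similar signal. They measure no spread beyond these pools.

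The platform annotation gave 1 gene symbol to 13513 probe sets, several to 503 and none to 8730. Of the 30 members 28 matched the TAIR10.1 gene table by gene ID and RALFL22 and CLE21 by symbol. Each has 1 probe set. Gene positions are not printed, because the array's genome build is unknown. Genes named with values are those that passed, per family the 3 brightest and the 3 with the largest change above the floor on both arrays of a group, PDF1.2, and per list the 3 with the largest change. FER, RALFL18, RALFL24 to RALFL27, CLE40, LCR66, LCR72 and LCR80 were added after their values were seen. The tissue markers, RCA among them, were outside this rule. The fit was repeated with medians centred or quantile-normalized arrays, with a pseudocount of 1 or of the 10th percentile, without probe sets under the 30th percentile of mean signal, without the variance trend, with a block for replicate number, with 1 probe set per gene, and with each array left out in turn. The members and lists were chosen with earlier results of these data known. The list entry SOL1 matched AT3G22760, a different gene of the same symbol, and was left out after its values were seen.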

Additional observations from a re-analysis of the deposited data

How the results depend on the processing

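The count of 7 changed members lay between 7 and 9 with other scalings, pseudocounts, the filter on mean signal, no variance trend and 1 probe set per gene. With the replicate block it was 11 (2 higher, 9 lower), which adds RALFL34, RALFL24, LCR67 and CLE27. The labels do not say that a number marks a shared day or batch, and deviations of same-numbered arrays correlated at 0.0807, so no pairing was assumed. With an array left out 2 to 4 members passed, in fits that give a single array the spread of the other group and have fewer degrees of freedom, and of the 7 only RALFL32 and RALFL22 passed in all 4 such fits. Changed probe sets, 4954 with all arrays, numbered 1835 to 2223 with an array left out, 2538 with 1 probe set per gene, which tests fewer probe sets, and 6301 with the replicate block. Members near the floor numbered 2 under the 10th percentile (5.48) and 13 under the 40th (101.7). Of 490 values of 42 genes, 433 kept direction and side of the threshold, 22 lost it, 14 gained it and 21 turned sign, none of the last from a gene that passed. PDF2.5 lay at 0.0119 with median centring and 0.0368 without control replicate 1, and EC1.2 at -0.195 with a pseudocount of 1. Across the 4 fits with an array left out, the log2 change ran from -0.32 to 0.00189 for LCR69, -0.169 to 0.177 for PDF1.2, -0.221 to 0.496 for LCR72 and -0.112 to 0.0368 for PDF2.5. It ran from -0.346 to 0.483 for EC1.2, from -0.147 to 0.483 for ANX1, from -0.0410 to 0.230 for ANX2 and from -0.108 to 0.151 for FER. Among other members it ran from -0.201 to 0.332 for RALFL18, -0.0534 to 0.370 for RALFL26, -0.193 to 0.611 for RALFL27, -0.222 to 0.0155 for CLE40, -0.534 to 0.0477 for LCR80 and -0.209 to 0.596 for LCR66. The cause of these shifts was not tested. No member has more than 1 probe set, so the choice of probe set could change nothing. Weak signal limits the 11 members near the floor.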

Other observations

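Replicate arrays lay far apart in several members near the floor. LCR66 (PDF2.4) read 0.788 and 25.6 on the RKD4-induced arrays, which is 32.5-fold apart, and 2.65 and 9.61 on the control arrays. The control arrays of RALFL18 (1.63 and 16.9) lay 10.4-fold apart and those of LCR80 (19.3 and 2.13) 9.05-fold apart. All of these readings are under the 25th percentile of all values. Over the whole array 201 probe sets differed by over 2-fold between the control arrays and 57 between the RKD4-induced arrays, on the scale with the pseudocount.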
